A study of Arabidopsis thaliana with 8 samples.

Results

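UNG (AT3G18630), AT5G26680 and AT4G32700 are 3 genes of DNA repair, of 13355 Arabidopsis thaliana genes that the platform annotation pairs alone with at least 1 probe set. UNG encodes uracil DNA glycosylase, AT5G26680 the flap endonuclease FEN1, and AT4G32700 TEB (TEBICHI), DNA polymerase theta. By that annotation, 1 probe set of the ATH1 array is paired alone with UNG, 1 with FEN1 and 2 with TEB, of 22746 probe sets tested. The genes were proposed with their values in these data known, so how many of them changed is a description and not evidence about DNA repair.

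The study measured transcripts of whole seedlings of the Col-0 accession on single-colour oligonucleotide arrays, 1 array per sample. The labels put 4 arrays in a group called E2Fa-Dpa and 4 in a wildtype group, and say of neither which alleles or transgenes it carries. E2Fa and its partner DPa act together as a transcription factor, and plants that make extra E2Fa and DPa are known, but the labels do not say whether these seedlings are such plants, what promoter would drive the factors or whether 1 line was used. The levels of E2FA and DPA were not analysed here. All seedlings grew on agar at 22 °C with 16 h light and 8 h dark, and were collected 6 days after germination, 8 days after sowing. Whether the samples of a group came from separate cultures is not labelled, so the p-values below cover the spread among these arrays, which may be technical. In RNA from whole seedlings, fewer cells of a type and less RNA per cell cannot be told apart.

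Uracil enters DNA when cytosine loses its amino group or when dUTP is used in place of dTTP during replication. Uracil DNA glycosylase cuts the base out and so opens base excision repair, in which an endonuclease, a polymerase and a ligase restore the strand. FEN1 trims the 5' flaps that arise when a polymerase displaces the strand ahead of it, both in the long-patch branch of base excision repair and between Okazaki fragments of the lagging strand. DNA polymerase theta has a helicase-like and a polymerase part and joins broken ends that share short stretches of sequence, and plants without TEB are known for defects in cell division and meristem organisation.

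Of the 3 genes, UNG and FEN1 rose in the E2Fa-Dpa seedlings and TEB did not pass the test. Over 1 probe set per gene, 3.65% of genes rose and 2.57% fell, or 2.85% and 4.13% with each array centred on its median signal. Changes are differences of log2(signal + 16), E2Fa-Dpa minus wildtype, where the signal is the linear intensity deposited by the authors. The threshold was an adjusted p of 0.05 by limma, with Benjamini-Hochberg adjustment over all tested probe sets. The offset of 16 makes these differences smaller than the ratio of the signals, most of all for dim probe sets. A signal depends on the probes as well as on the transcript, so levels are compared between groups and never between genes.

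Some facts of the arrays bear on all values. The Bacillus control RNA dap had a mean signal of 79.9 to 116 on E2Fa-Dpa replicates 1 and 4 and wildtype replicates 3 and 4, while the rest had 2.11 to 3.48. This split into arrays with and without control RNA crosses the groups, and 26.3% of probe sets differed along it in a limma fit with the group in the model. The 2 arrays of each group and set correlated at 0.974 to 0.994 over log2 values, and all other pairs of arrays at 0.910 to 0.968. Where such a close pair shares its RNA, the true n is 2 per group and not 4. The summed signal of 4 measured leaf markers was 8629.9 to 10558 in E2Fa-Dpa and 11101 to 13770 in wildtype, and that of 4 root markers 2728 to 3124 in E2Fa-Dpa and 4007 to 5054 in wildtype. Transcripts of both organs were thus present on all 8 arrays, and both sums were lower on all 4 E2Fa-Dpa arrays. The root marker PYK10 made up most of its sum, with means of 2586 in E2Fa-Dpa and 3923 in wildtype. By limma 1 of the 4 leaf markers (PRK) and 2 of the 4 root markers (PYK10 and PER57) fell, against 2.57% of all genes. GAPDH control probe sets, which report on RNA integrity, gave 3'-over-5' ratios of 0.931 to 1.03 in E2Fa-Dpa and 0.835 to 0.918 in wildtype. The same ratio overlapped between the groups for actin (1.21 to 1.92 in E2Fa-Dpa, 1.24 to 1.99 in wildtype) and ubiquitin (1.15 to 1.95 in E2Fa-Dpa, 1.20 to 1.76 in wildtype). The interaction of group and array set passed the threshold for 0.0835% of probe sets. The part of these shifts in the results below was not tested.

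UNG had signals of 109.0, 132.1, 165.3 and 118.0 on E2Fa-Dpa replicates 1 to 4, against 15.6, 13.2, 7.77 and 22.7 on wildtype replicates 1 to 4. The lowest E2Fa-Dpa array lay far above the highest wildtype array, and the groups did not overlap. The means were 131.1 ± 24.7 in E2Fa-Dpa and 14.8 ± 6.21 in wildtype (SD, n = 4 each), a ratio of 8.85. The log2 difference was 2.26 ± 0.184 (SE, 95% interval 1.85 to 2.68, adjusted p = 0.000229 by limma). The two-sided exact permutation test over the arrays gave p = 0.0286, the smallest that 4 arrays against 4 can give. By the size of its rise UNG ranked 19 of 13355 genes.

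UNG was a dim probe set in wildtype and a well-lit one in E2Fa-Dpa. Between 25.6% and 39.6% of the tested probe sets had a lower signal on the wildtype arrays, and between 72.5% and 81.2% on the E2Fa-Dpa arrays. Because the wildtype signals lay near the offset, the size of the log2 difference depended on it. The difference was 3.13 with an offset of 1 and 1.30 with an offset of 64, past the threshold each time (adjusted p = 0.000299 and 0.000352 by limma). The difference was 2.43 where control RNA was missing and 2.09 where it was present, and these values did not differ past the threshold (interaction -0.34, adjusted p = 0.747). The call held whichever array was left out, with a highest adjusted p of 0.00165 by limma. Averaging each close pair to 1 sample gave an adjusted p of 0.108, in a fit that called 2 probe sets in all.

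**Figure D1:**
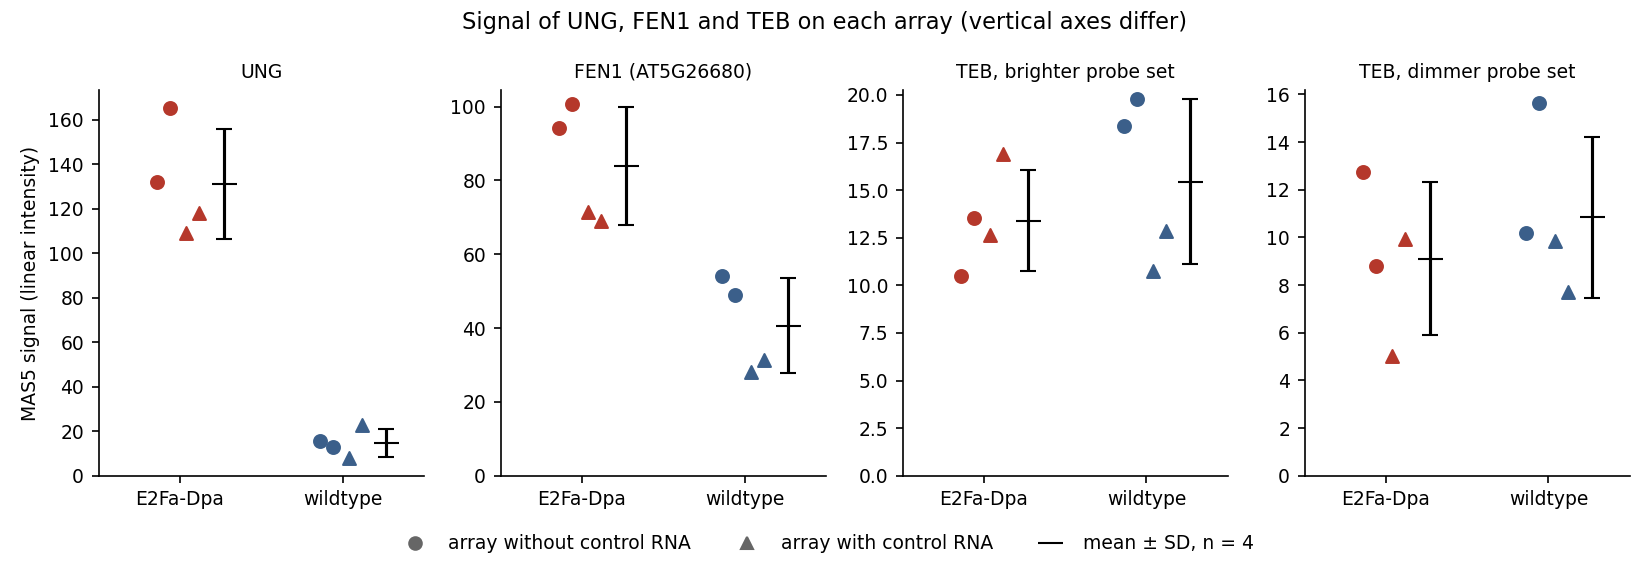
MAS5 signal (linear intensity, vertical axes differ and start at 0) of UNG, FEN1 and the 2 TEB probe sets on each array, with E2Fa-Dpa left of wildtype. Circles are arrays without control RNA, triangles arrays with it, and the black bars show mean ± SD (n = 4). The groups do not overlap for UNG (109.0 to 165.3 against 7.77 to 22.7) or FEN1 (68.9 to 100.7 against 28.1 to 54.2), and they overlap for both TEB probe sets.

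FEN1 had signals of 71.4, 94.2, 100.7 and 68.9 on E2Fa-Dpa replicates 1 to 4, against 54.2, 48.9, 28.1 and 31.4 on wildtype replicates 1 to 4. The groups did not overlap, but the highest wildtype array lay closer to the lowest E2Fa-Dpa array than for UNG. The means were 83.8 ± 16.0 in E2Fa-Dpa and 40.6 ± 12.8 in wildtype (SD, n = 4 each), a ratio of 2.06. The log2 difference was 0.83 ± 0.193 (SE, 95% interval 0.40 to 1.27, adjusted p = 0.0323 by limma), which ranked 283 of 13355 genes by rise. The exact permutation p was 0.0286, again the smallest possible.

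Within each group, the FEN1 signal was lower on the arrays with control RNA. In E2Fa-Dpa these arrays had 71.4 and 68.9 against 94.2 and 100.7 on the others, and in wildtype 28.1 and 31.4 against 54.2 and 48.9. The effect of the array set was -0.48 on the log2 scale (adjusted p = 0.00823 by limma), while for UNG it was -0.17 (adjusted p = 0.478). The rise of FEN1 was 0.92 on the arrays with control RNA alone and 0.75 on the others alone. Blocking on the array set gave an adjusted p of 0.000691, in a fit that rests mostly on the spread inside close pairs.

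The call of FEN1 was not stable to the choice of arrays. It was lost without any of the 4 E2Fa-Dpa replicates or wildtype replicate 2, 3 or 4, with an adjusted p of 0.0515 to 0.0886 by limma and a difference of 0.72 to 0.91. Without wildtype replicate 1 it held (0.94, adjusted p = 0.0353). Treating close pairs as a random block gave an adjusted p of 0.1. The direction was the same in each of these fits.

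TEB was measured by 2 probe sets, and neither passed the test. The brighter had signals of 12.6, 10.5, 13.6 and 16.9 on E2Fa-Dpa replicates 1 to 4, against 18.4, 19.8, 10.7 and 12.8 on wildtype replicates 1 to 4. The dimmer had 5.01, 12.7, 8.80 and 9.92 on the E2Fa-Dpa arrays, against 10.2, 15.6, 9.85 and 7.71 on the wildtype arrays. The groups overlapped for both probe sets. The log2 differences were -0.09 ± 0.130 for the brighter (SE, 95% interval -0.38 to 0.20, adjusted p = 0.743 by limma) and -0.10 ± 0.129 for the dimmer (95% interval -0.39 to 0.19, adjusted p = 0.717). The exact permutation p was 0.457 for each.

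These values limit what can be said of TEB. Both probe sets were dim on all 8 arrays, with 21.4% to 35.7% of tested probe sets below them. Of the 9946 probe sets with a mean signal under 32, as for TEB, 1.91% rose and 1.26% fell. With an offset of 1 in place of 16 the interval widened to -0.83 to 0.49 for the brighter and -1.04 to 0.54 for the dimmer. A fall or a rise of TEB within those intervals is not excluded at that offset, and the p-values do not show that it was equal in the groups. The brighter probe set had a difference of 0.14 on the arrays with control RNA alone and -0.32 on the others alone (adjusted p = 0.396 for the interaction), while the dimmer had -0.09 and -0.11.

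**Figure D2:**
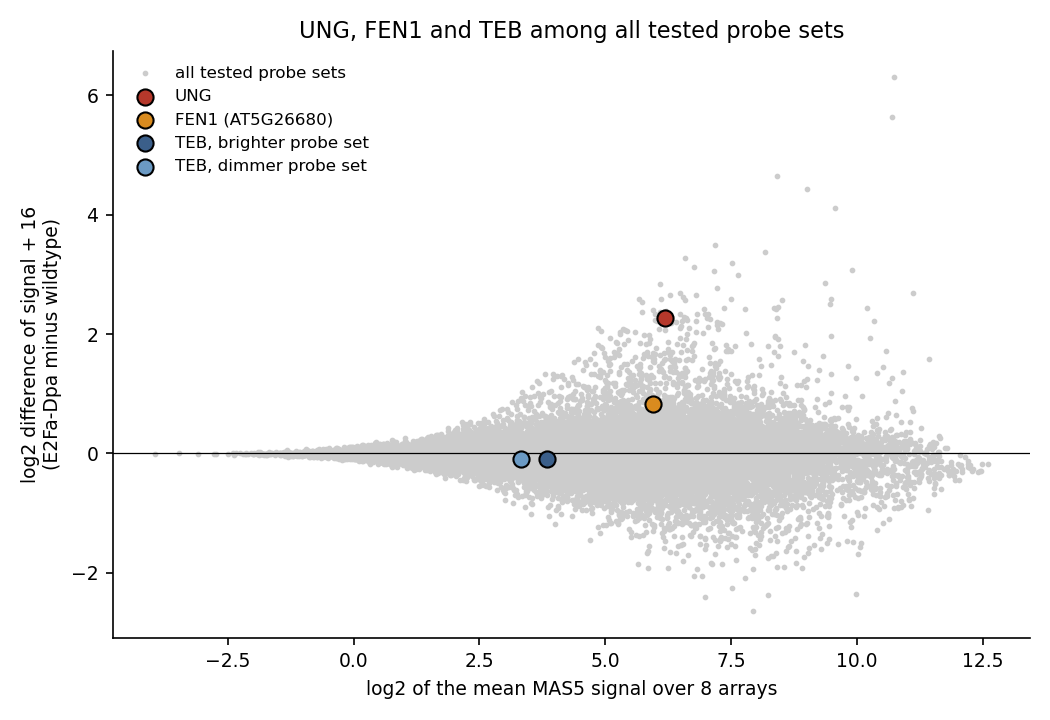
Log2 difference of signal + 16 (E2Fa-Dpa minus wildtype, vertical axis) against the log2 of the mean signal over 8 arrays (horizontal axis) for all 22746 tested probe sets in grey, with UNG, FEN1 and the 2 TEB probe sets marked. UNG (2.26) lies near the upper edge of the cloud and FEN1 (0.83) inside its upper part, while both TEB probe sets (-0.09 and -0.10) lie at the dim end, where the offset narrows the spread of all differences.

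The differences between the changes were measured as well, since a call for UNG and none for TEB do not show that they differ. For each array the log2 value of 1 gene was subtracted from that of another and the groups were compared, for 3 pairs of genes. UNG minus TEB (brighter probe set) was 2.03 to 2.62 on the E2Fa-Dpa arrays and -0.29 to 0.42 on the wildtype arrays, so the change of UNG exceeded that of TEB by 2.35. For FEN1 minus TEB the ranges were 1.37 to 2.06 in E2Fa-Dpa and 0.72 to 1.03 in wildtype, an excess of 0.92. For UNG minus FEN1 they were 0.43 to 0.66 in E2Fa-Dpa and -1.15 to -0.29 in wildtype, an excess of 1.43. None of the 3 pairs of ranges overlapped, and the exact permutation p was 0.0286 each, before and after adjustment over the 3 pairs, which is the smallest possible. With the dimmer probe set for TEB the excess was 2.36 for UNG and 0.93 for FEN1. With an offset of 64 each excess was smaller, at 1.34 for UNG minus TEB, 0.54 for FEN1 minus TEB and 0.80 for UNG minus FEN1. The pairs were chosen with the values known, so these p-values describe how far apart the changes lay on these arrays. They are not independent evidence of a difference.

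Other genes of the same pathways were taken from 7 lists written by locus, with earlier results of these data known. Of their 128 genes, 31 had a probe set that the annotation pairs with them alone. Only these are called measured, and each was represented by its brightest such probe set. Among the 31, 18 rose and none fell by limma (21 higher and 0 lower at an unadjusted p under 0.05), with a median log2 difference of 0.83, against 3.65% of all genes risen and a median of 0.00 over all genes. Without UNG, FEN1 and TEB it was 16 of 28, with a median of 0.87. With close pairs as a random block 12 of the 31 rose. After averaging close pairs, 0 of the 31 passed, and 18 were higher at an unadjusted p under 0.05. The 3.65% of all genes is for the adjusted threshold in the main fit. It is no baseline for the unadjusted counts or for the count with a random block. The shares of all genes for those counts are not given here. The unadjusted cut is loose, since AT2G25100, a list gene that passed it, ranked 2723 of 13355 genes in order of p. The lists on uracil and dNTP supply (8 genes) and on mismatch repair (10 genes) had no measured member. The annotation used here does not list 8730 of the 22746 tested probe sets and pairs 503 with several genes. List genes that are not measured may therefore still have probe sets on the array, and 31 of 128 is not the array's coverage. The 1 measured of 19 genes for nucleotide excision repair and photolyases, RAD4, a damage-recognition factor, had 0.28 (adjusted p = 0.319). For loci without a symbol in the annotation, a name in parentheses is the usual name of the locus and not from the annotation.

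In base excision repair 3 of 10 measured genes rose, of 24 written, against 3.65% of all genes. UNG and FEN1, chosen with their values known, are among the 3. The remaining risen gene was AT3G14890 (ZDP), the phosphatase that cleans blocked 3' ends at nicks. It had signals of 199.2, 81.1, 110.4 and 203.7 on E2Fa-Dpa replicates 1 to 4, against 29.7, 53.6, 36.7 and 50.5 on wildtype replicates 1 to 4. The groups did not overlap, and the log2 difference was 1.43 ± 0.278 (SE, adjusted p = 0.0168 by limma). On the arrays with control RNA its difference was 1.88, against 0.97 on those without. Of 8 fits that each lacked an array, 5 kept its call, the highest adjusted p being 0.0558. Without E2Fa-Dpa replicate 1 or 4 only 1 gene of the list, UNG, passed, as with close pairs as a random block (ZDP adjusted p = 0.0729).

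The other measured DNA glycosylases did not pass the test. OGG1, FPG1, ROS1, DML2, DML3 and NTH2, glycosylases also written in this list, had no probe set that the annotation pairs with them alone. No value is given for them. The measured ones included ATNTH1, which acts on oxidised pyrimidines (0.09), and DME, which removes 5-methylcytosine (0.12). The rest were AT3G07930 (MBD4L), which acts on mismatched uracil or thymine (0.05), AT4G12740 (MUTY), which removes adenine opposite oxidised guanine (0.16), and AT3G12040 (MAG), for alkylated adenine (-0.15). For all of these measured glycosylases the adjusted p lay between 0.377 and 0.915 by limma. The measured AP endonucleases AT3G48425 (APE1L) and AT4G36050 (APE2) had 0.50 and 0.12 (adjusted p = 0.129 and 0.816 by limma). A further one, ARP, also had no probe set that the annotation pairs with it alone. Blocking on the array set brought APE1L past the threshold (adjusted p = 0.0455) and the list's count to 4, in a fit where 10.5% of all genes rose. The median of the list was 0.14, and the 7 members that did not pass had differences between -0.15 and 0.50. The interval of APE1L, 0.10 to 0.90, overlapped that of FEN1. Of the 3 DME probe sets, the other two had -0.12 and -0.02.

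In lagging-strand synthesis 4 of 5 measured genes rose, FEN1 among them, of 19 written, against 3.65% of all genes. The median of the list was 1.51. ICU2, which carries the catalytic activity of polymerase alpha, had signals of 136.2, 156.9, 187.5 and 138.8 on the E2Fa-Dpa arrays, against 36.1, 36.1, 27.7 and 29.3 on the wildtype arrays. The groups did not overlap, and the log2 difference was 1.82 (adjusted p = 0.000183 by limma). POLD3, a subunit of polymerase delta, rose by 1.55 and POLA3, the small primase subunit, by 1.51. FEN1 had the smallest difference of the 4 risen members. AT2G25100 (RNase H2 subunit A), which removes ribonucleotides from DNA, had 0.33 (adjusted p = 0.21).

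In double-strand break repair 10 of 13 measured genes rose, of 43 written, against 3.65% of all genes, with a median of 0.99. The groups did not overlap for these 10, as for 8.69% of all genes with E2Fa-Dpa above. TEB, SEND1 (AT3G48900), a nuclease that resolves DNA junctions (0.02, adjusted p = 0.962), and ATLIG4, the ligase of classical end joining (0.34, adjusted p = 0.244), did not pass. TOP3A, the topoisomerase that unlinks recombining strands, had signals of 131.1, 116.2, 126.7 and 124.3 on E2Fa-Dpa replicates 1 to 4, against 32.5, 29.2, 18.8 and 30.4 on wildtype replicates 1 to 4. Its arrays were tightly grouped on either side, and the log2 difference was 1.70 ± 0.138 (SE, adjusted p = 0.000229 by limma).

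AT4G14970 (FANCD2), of the Fanconi pathway for crosslinked DNA, had 53.7, 49.3, 63.8 and 55.9 on the E2Fa-Dpa arrays, against 1.29, 7.10, 2.58 and 10.2 on the wildtype arrays. Its wildtype signals all lay under the offset of 16, and its log2 difference was 1.77 (adjusted p = 0.000373 by limma). A probe set that was dim in wildtype alone could thus pass the test, which says nothing of one dim in both groups, as for TEB. AT1G79950 (RTEL1), a helicase that takes apart recombination loops, had 228.1, 220.4, 234.4 and 198.4 in E2Fa-Dpa, against 68.8, 85.9, 78.2 and 90.6 in wildtype, with a log2 difference of 1.29.

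FANCM, a helicase that remodels stalled forks, rose by 1.55, and its E2Fa-Dpa signals were 46.1 to 96.2 against 11.3 to 19.2 in wildtype. The exonucleases AT1G18090 (EXO1B) and AT1G29630 (EXO1A), which resect DNA ends, rose by 1.07 and 0.99, and the helicase RECQ4A, a partner of TOP3A, by 0.96. AT1G48360 (FAN1), a nuclease for crosslinked DNA, rose by 0.92. The remaining risen members were RAD51B (1.06) and RECQ4B (0.81), named here after their values were seen. Of these 10 calls, all but 1 held whichever array was left out, while RECQ4B kept its call in 3 of 8 fits (highest adjusted p 0.0924). Treating close pairs as a random block left 7 calls, without EXO1B (adjusted p = 0.0583), RAD51B (0.113) and RECQ4B (0.137).

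Among polymerases that copy damaged DNA or act in repair, 2 of 4 measured genes rose, of 9 written, against 3.65% of all genes. POLH, polymerase eta, which copies past thymine dimers, had signals of 61.7, 60.8, 65.3 and 93.7 on E2Fa-Dpa replicates 1 to 4, against 15.0, 17.7, 12.4 and 20.8 on wildtype replicates 1 to 4. Replicate 4 was the highest array in each group, and the log2 difference was 1.40 ± 0.159 (SE, adjusted p = 0.00115 by limma). AT1G49980 (POLK), polymerase kappa, rose by 0.66 (adjusted p = 0.0438), a call that only the fit without wildtype replicate 2 kept among 8 that lacked an array, and that a random block of close pairs did not keep (adjusted p = 0.285). REV7, a subunit of polymerase zeta, had 0.43 and did not pass (adjusted p = 0.055 by limma). Its groups did not overlap, as for 8.69% of all genes with E2Fa-Dpa above. Blocking on the array set gave REV7 an adjusted p of 0.017, in a fit where 10.5% of all genes rose. A random block of close pairs gave it 0.282. Of the alternative settings, 4 took REV7 past the threshold and 15 did not. TEB was the only measured member of this list with a value below 0.

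**Figure D3:**
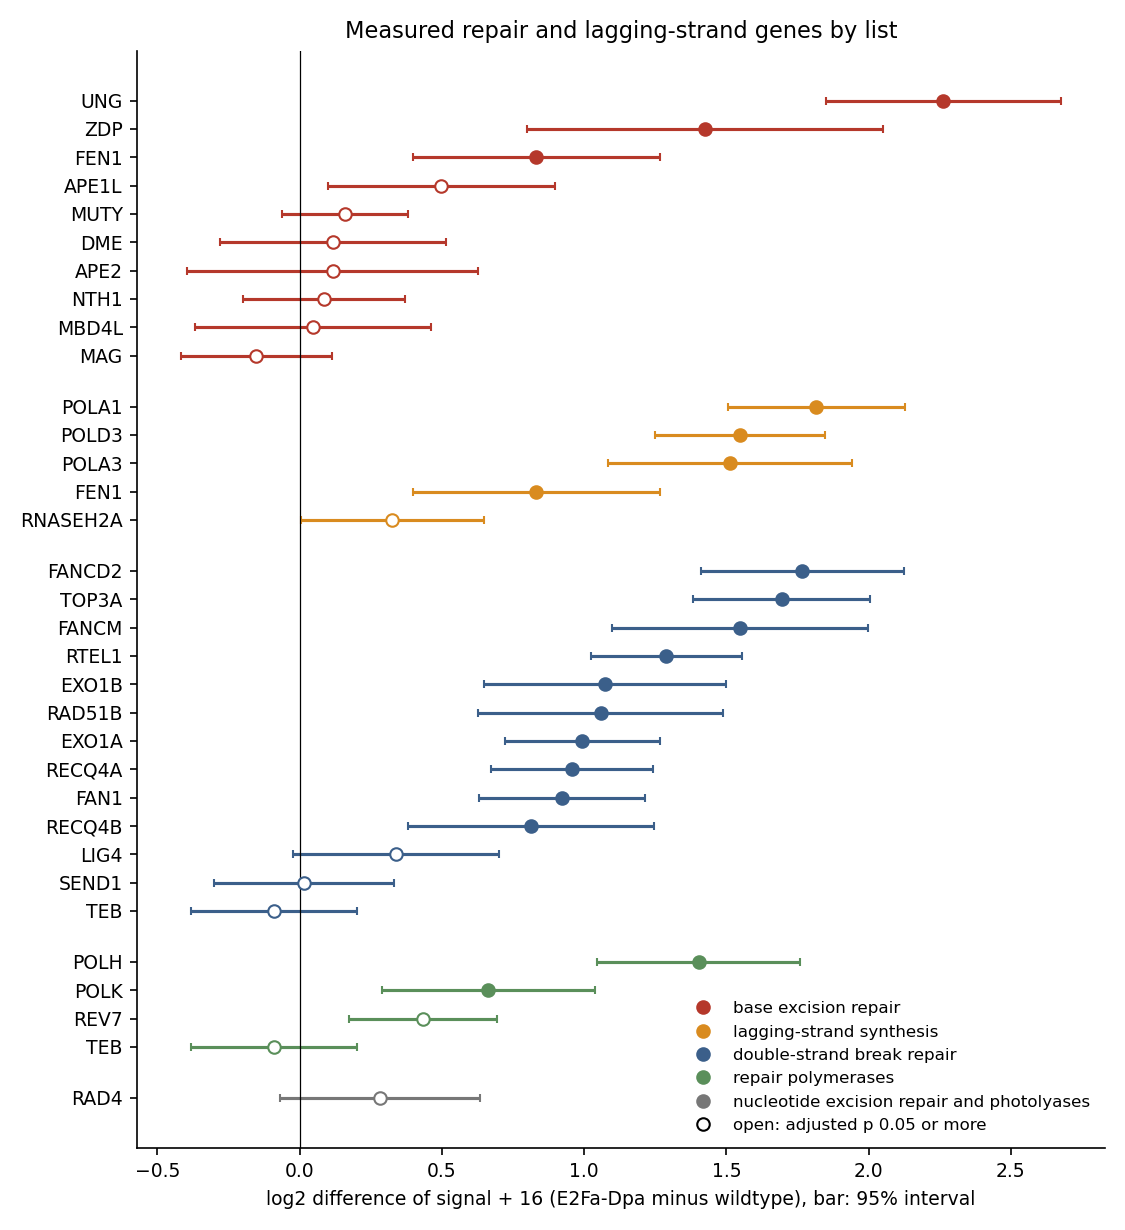
Log2 difference of signal + 16 (E2Fa-Dpa minus wildtype, horizontal axis) with its 95% interval for each measured gene of 5 lists, coloured by list. Filled points passed the adjusted threshold and open points did not, genes in 2 lists appear in both, and POLA1 is ICU2 and RNASEH2A is AT2G25100. UNG (2.26) is at the top of base excision repair, FEN1 (0.83) is the lowest of the filled points there, and TEB (-0.09) is the lowest in both of its lists.

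The profiles over the 8 arrays were compared with those of all other probe sets that name 1 gene. Each log2 profile was centred on its own mean, and the root-mean-square distance was taken as the measure of likeness. Nearest to UNG were AT4G22960 (0.215), ICU2 (0.290) and PRL (0.292), which encodes MCM7, part of the helicase that unwinds DNA for replication. Nearest to FEN1 were AT3G62190 (0.0843), AT1G12020 (0.0914) and AT4G20350 (0.102), which had log2 differences of 0.86, 0.92 and 0.91. Nearest to TEB were AT2G24930, AT4G07360 and AT1G75550 for its brighter probe set (0.0574 to 0.06), and AT5G13760, GH3.9 and AT2G18270 for its dimmer one (0.0515 to 0.0693). The 2 TEB probe sets lay 0.175 apart. The neighbours were picked as the nearest of all these probe sets, so that distance cannot be set against theirs.

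**Figure D4:**
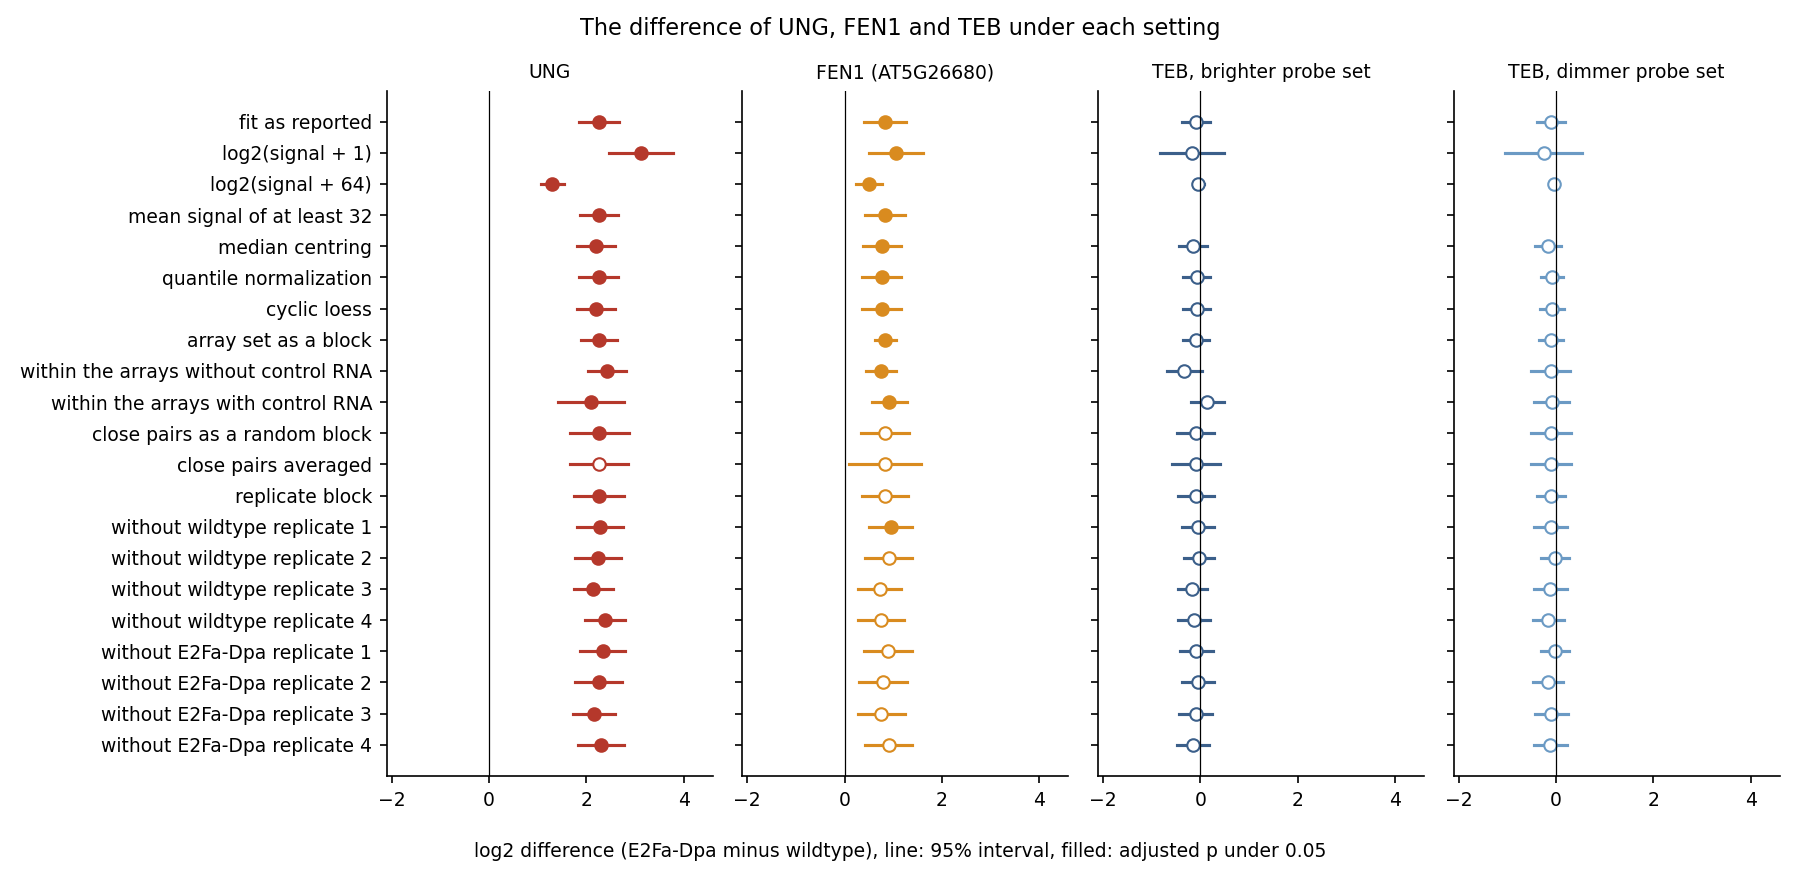
Log2 difference (E2Fa-Dpa minus wildtype, horizontal axis) with its 95% interval for UNG, FEN1 and the 2 TEB probe sets under each processing setting (rows). Filled points passed the adjusted threshold. Among these settings UNG ranges from 1.30 to 3.13 and is open only where close pairs are averaged, FEN1 ranges from 0.50 to 1.06 and is open in several rows, and all TEB points are open.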

How the data were processed

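Each of 8 seedling samples was measured on 1 ATH1 array. The authors deposited linear intensities, a value for each probe set and array, made with MAS5 per the submitters' processing notes (no version given). A trimmed mean near 100 on each array shows the authors' scaling. Of 22810 probe sets, 64 manufacturer's controls were left out. The number of arrays limits the precision.

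Values were used as log2(signal + 16), with no filter on low signal, and modelled in limma 3.58.1 under R 4.3.3 (lmFit, eBayes with trend, all 8 arrays, no covariate). Adjusted p-values are Benjamini-Hochberg values over 22746 probe sets. Permutation tests were exact and two-sided (scipy 1.17.1). Procedures were tested on simulated data. Symbols came from the platform annotation and loci from the RefSeq gene table of TAIR10.1, through gene numbers.

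The genes and lists were chosen with earlier results of these data known. The plan was to name the 3 genes, up to 8 measured genes per list in order of p, and 3 nearest probe sets for each of the 3 genes. All measured repair genes are named here, which goes beyond that plan in base excision repair and double-strand break repair. The array sets were read from control probe sets (dap signal above 32). Alternatives were other offsets, a signal filter, other scalings, blocks and left-out arrays. A planned search for promoter words needs sequences and was not run, and no sequence was analysed here.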

Additional observations from a re-analysis of the deposited data

Results flagged for a closer look

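Among the repair genes, 64 groups of 4 arrays were searched for an array far from the other 3, of which chance flags about 1 in 20. In E2Fa-Dpa, the POLH signal of replicate 4 was 93.7, far above 60.8 to 65.3 on the other 3 arrays. In wildtype, the EXO1B signal of replicate 4 was 41.2, far above 23.0 to 25.1 on the other 3. In E2Fa-Dpa, the MAG signal of replicate 1 was 17.2, below 21.7 to 22.4 on the other 3. No array of UNG, FEN1 or TEB stood apart in this way. No repair gene's difference differed between the array sets after adjustment, and 0.0835% of all probe sets did.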

How the results depend on the processing

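UNG and FEN1 kept their direction in all alternatives. With each close pair averaged to 1 sample, UNG had 2.26 with an adjusted p of 0.108 and FEN1 0.83 with 0.49, and no list gene passed (0 risen in base excision repair, lagging-strand synthesis, double-strand break repair and repair polymerases, and 0 of all 31, or of 28 without UNG, FEN1 and TEB). That fit has 2 samples per group. With the pairs as a random block, FEN1 had 0.83 (adjusted p = 0.1), and 1 gene rose in base excision repair, 7 in double-strand break repair, 1 among repair polymerases and 12 over all lists. Leaving out 1 array gave 2.14 to 2.38 for UNG and 0.72 to 0.94 for FEN1. For counts of risen genes it gave 1 to 2 in base excision repair, 3 to 4 in lagging-strand synthesis, 9 to 10 in double-strand break repair, 1 to 2 among repair polymerases and 14 to 17 over all lists. Base excision repair fell to 1 without E2Fa-Dpa replicate 1 or 4, and repair polymerases to 1 without any array but wildtype replicate 2. Within either array set alone, 1 repair polymerase rose. The shares of all genes that rose in the random-block, left-out-array and single-set fits are not given here. The 3.65% of the main fit is no baseline for their counts, since the share differed between fits (10.5% when blocked on the array set).

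Whether the replicate numbers pair the samples is not labelled. Deviations of same-numbered arrays correlated at -0.519, 0.443, -0.359 and 0.526 for replicates 1 to 4. They were positive where both arrays belonged to the same array set and negative where not. The array set was not removed first, so these values cannot decide whether the samples were paired. With the replicate block, FEN1 had 0.83 (adjusted p = 0.0752), UNG kept its call (adjusted p = 0.00509) and 1 repair polymerase rose. No share of all genes is given for that fit. With a mean signal of at least 32 over both groups, 6 of 13 break repair genes were tested, without TEB, and 6 rose. A rise helps a gene over that limit, so this count supports nothing.

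TEB (brighter probe set) had 0.14 within the arrays with control RNA, opposite in sign to the fit over all arrays, and -0.16 to -0.02 with 1 array left out, none past the threshold. The differences between changes kept their signs. Exact tests with blocks or fewer arrays cannot reach 0.05. Their smallest p was 0.0556 within array sets, 0.125 with the replicate block, 0.333 for 2 against 2 and 0.0571 with 1 array left out. UNG minus TEB was 2.35 with the blocks or pairs averaged, 2.76 without and 1.95 with control RNA, and 2.25 to 2.51 with 1 array left out. FEN1 minus TEB was 0.92, 1.07, 0.77 and 0.82 to 1.05, and UNG minus FEN1 1.43, 1.68, 1.18 and 1.34 to 1.62, in the same order. An offset of 1 gave 3.30, 1.23 and 2.07 for the 3 pairs and one of 64 gave 1.34, 0.54 and 0.80, each with an exact permutation p of 0.0286.

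Of 28 other repair genes, 4 that did not pass turned their sign, none passing after it. DME had -0.14 within the arrays with control RNA. SEND1 had -0.0450 with median centring, -0.0509 within the arrays without control RNA and -0.0823 to 0.0980 with 1 array left out (below 0 without wildtype replicate 4 or E2Fa-Dpa replicate 3). APE2 had -0.10 within the arrays with control RNA, and -0.0488 to 0.280 with 1 array left out (below 0 without wildtype replicate 4 or E2Fa-Dpa replicate 2). MBD4L had -0.0136 with median centring, -0.0107 with quantile normalization, -0.00432 with cyclic loess, -0.115 within the arrays with control RNA and -0.0709 to 0.144 with 1 array left out (below 0 without wildtype replicate 4 or E2Fa-Dpa replicate 3). The cause of these shifts was not tested.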
